A study of Rattus norvegicus with 20 samples.

Results

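Transcripts of 7 leukocyte and inflammation marker genes, among 30452 gene rows, were followed across 4 groups of rat ventricle libraries. The genes were taken by identifier from a fixed rule that used no measured value: Ptprc (ENSRNOG00000000655), Cd68 (ENSRNOG00000037563), Lgals3 (ENSRNOG00000010645), Ccl2 (ENSRNOG00000007159), S100a8 (ENSRNOG00000011557), S100a9 (ENSRNOG00000011483) and Lcn2 (ENSRNOG00000013973). The members were chosen with earlier results of these data known, so shares among the 7 are descriptive. All 7 passed the filter on low counts over all libraries and were among the 10929 genes tested. Lcn2 did not pass it with only the LV or only the saline groups fitted. The symbols come from that rule, because the count table pairs no identifier with a name.

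The 4 groups held 5 libraries each: right ventricle (RV) after monocrotaline (MCT), RV after saline, left ventricle (LV) after MCT and LV after saline. MCT is a pyrrolizidine alkaloid that is activated in the liver, damages the small vessels of the lung and so loads the right heart, which makes it a common model of pulmonary hypertension. Male rats of 250 g received 60 mg/kg of MCT or saline, and the stated end point was a discomfort score of 7 or more, which sets no fixed day of death. Strain and age were not given in the sources used here. Each same-numbered RV and LV library of a treatment, 10 of 10 pairs, carries 1 shared description code, and whether such a pair comes from 1 rat is not stated. The main fit treats the 20 libraries as independent, and fits with each pair as a block are given where they change a call. Libraries of one group each carry a description code of their own, but nothing says in words that they stem from different rats. If they do not, a p-value covers only their own spread, which may be technical. Markers of heart muscle and of other cell types could not be looked up, so the labelled tissue was not checked.

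Leukocytes carry the tyrosine phosphatase CD45, the product of Ptprc, on their surface and are recruited to injured tissue by chemokines such as CCL2, which draws monocytes out of the blood. Macrophages that settle there are rich in the lysosomal protein CD68 and in galectin-3 (Lgals3), a lectin that binds sugar chains and is studied as a marker of cardiac fibrosis. Neutrophils and young monocytes hold large amounts of S100A8 and S100A9, which pair to form calprotectin. Lipocalin-2 (Lcn2) takes up bacterial iron carriers and is made by neutrophils and by stressed parenchymal cells.

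Promoter windows are shown for 3 genes, because Lcn2 and Cd68 rose in the LV after MCT and S100a9 moved closely with its partner S100a8. RefSeq (build GRCr8) gave a window of 250 bases before to 50 after the start for 4 of the 7 genes. Each is written 5′ to 3′ on the strand of the gene. Capitals mark matches on either strand to the TATA box (TATAAA), the PU box core of the myeloid factor PU.1 (GAGGAA) and a C/EBP element with a spacer (TTGCNNAA).
Cd68, chr10:54882392-54882691, minus strand: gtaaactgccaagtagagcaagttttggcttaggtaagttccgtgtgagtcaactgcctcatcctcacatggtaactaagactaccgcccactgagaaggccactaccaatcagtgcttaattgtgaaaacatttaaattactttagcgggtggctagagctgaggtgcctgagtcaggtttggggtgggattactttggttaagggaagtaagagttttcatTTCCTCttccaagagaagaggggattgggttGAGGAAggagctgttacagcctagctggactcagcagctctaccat
S100a9, chr2:178490573-178490872, minus strand: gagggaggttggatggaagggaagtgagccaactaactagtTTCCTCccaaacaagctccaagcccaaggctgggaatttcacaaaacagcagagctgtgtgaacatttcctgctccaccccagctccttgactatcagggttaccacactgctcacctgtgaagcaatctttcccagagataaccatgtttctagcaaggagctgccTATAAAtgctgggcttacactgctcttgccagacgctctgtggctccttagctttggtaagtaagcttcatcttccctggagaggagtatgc
Lcn2, chr3:36081731-36082030, minus strand: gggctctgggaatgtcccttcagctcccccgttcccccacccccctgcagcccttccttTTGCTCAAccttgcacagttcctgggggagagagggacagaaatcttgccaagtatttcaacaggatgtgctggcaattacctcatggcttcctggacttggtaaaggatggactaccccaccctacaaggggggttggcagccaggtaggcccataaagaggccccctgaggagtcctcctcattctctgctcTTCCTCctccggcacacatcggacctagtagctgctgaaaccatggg

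The PU box core was found in all 4 windows available, that of Ptprc included, and in 27.6% of all 33469 promoter windows of 300 bases. The TATA box was found in the S100a9 window only, starting 42 bases before the start, and in 14.2% of all windows. The C/EBP element was found in the Lcn2 window only and in 10.6% of all windows. The matches do not overlap each other, and they describe letters, not bound sites.

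Libraries held 3272420 to 9227104 counts, so that 1 count stood for 0.0825 to 0.350 CPM (read counts scaled to a common library size with TMM factors). The 10 most abundant genes took 25.7% to 50.2% of a library. RV MCT replicate 4 (48.6%) and LV MCT replicate 3 (50.2%) had the highest such share of their groups, and earlier results on these data had placed both among the saline libraries. Description codes that read as dates put 3 libraries of each group in May or June and 2 in November. Levels below are CPM, and differences are log2 fold changes from edgeR's quasi-likelihood test over all 20 libraries, with p adjusted by Benjamini-Hochberg over 10929 genes and a threshold of 0.05. Reads came from the 3′ ends of transcripts, so counts were not divided by length.

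**Figure D1:**
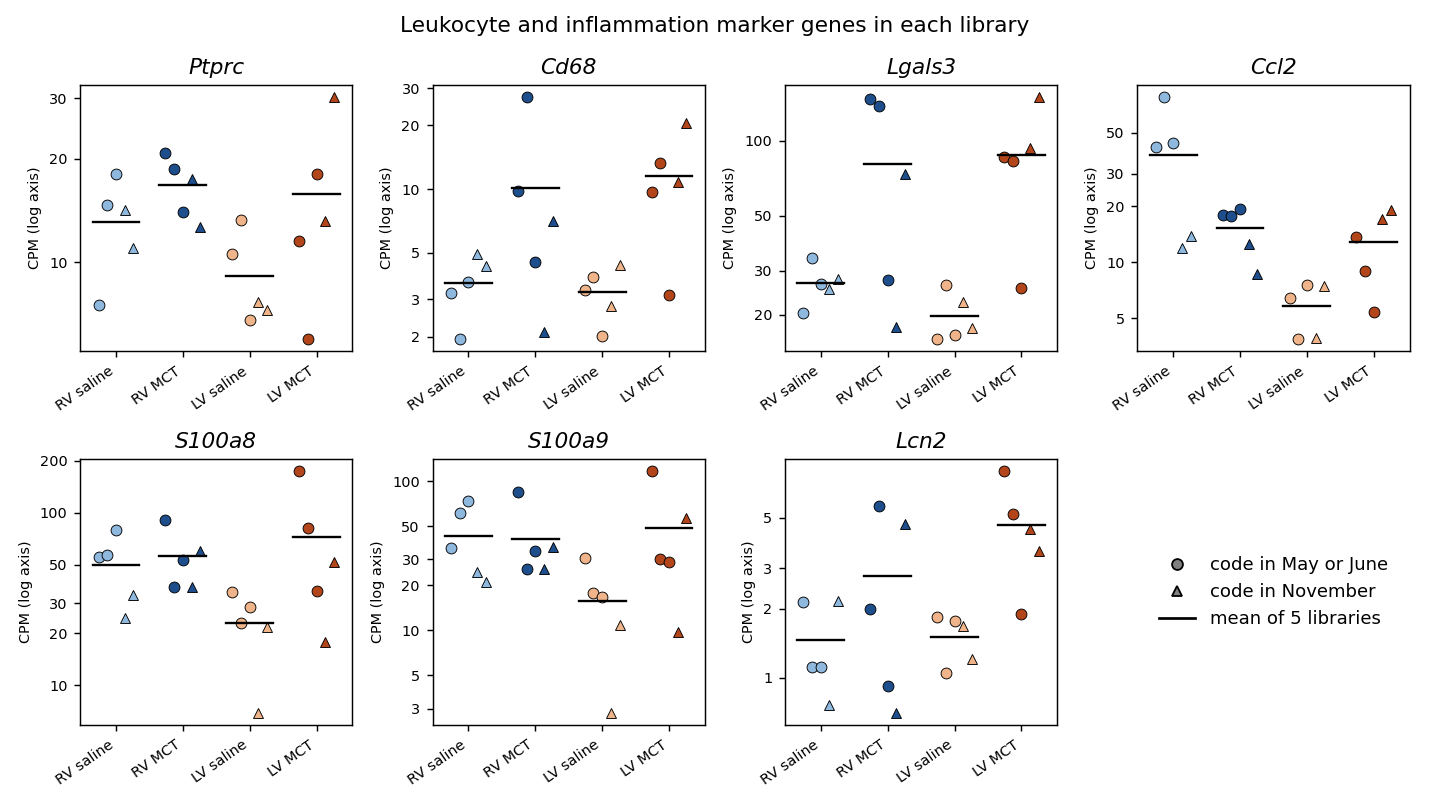
CPM of the 7 genes (log axis) in each of the 20 libraries, with the 4 groups on the horizontal axis; circles carry a May or June code, triangles a November code, and lines are means of 5 libraries. Lgals3 lies between 73.5 and 150 CPM in 7 of the 10 MCT libraries and at or below 33.8 CPM in the other 13 libraries.

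In the LV, 4 of the 7 genes rose after MCT, where 5.45% of all tested genes rose: Lgals3, Cd68, S100a8 and Lcn2. Lcn2 entered the tested set through libraries in which it is high, so its part in this count is descriptive. The other 3, Ptprc, Ccl2 and S100a9, also had log2 fold changes above 0, as did 52.4% of all tested genes, without passing the threshold. The median log2 fold change of the 7 was 1.63, against 0.03 over all genes tested. At an unadjusted p under 0.05 all 7 were higher, as were 13.5% of all tested genes. In whole tissue, more cells of a type and more RNA per cell cannot be told apart.

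In the RV, none of the 7 passed (edgeR), where 0.238% of all tested genes rose and 0.0366% fell. At an unadjusted p under 0.05, Lgals3 and Cd68 were higher, as were 9.96% of all tested genes, and Ccl2 was lower, as were 7.56%. The median log2 fold change was 0.37, against 0.01 over all genes. DESeq2 called 1 of the 7, Lgals3, as higher, where it called 2.58% of all tested genes higher, and limma voom called 0 of the 7 and 2.52% of all tested genes.

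**Figure D2:**
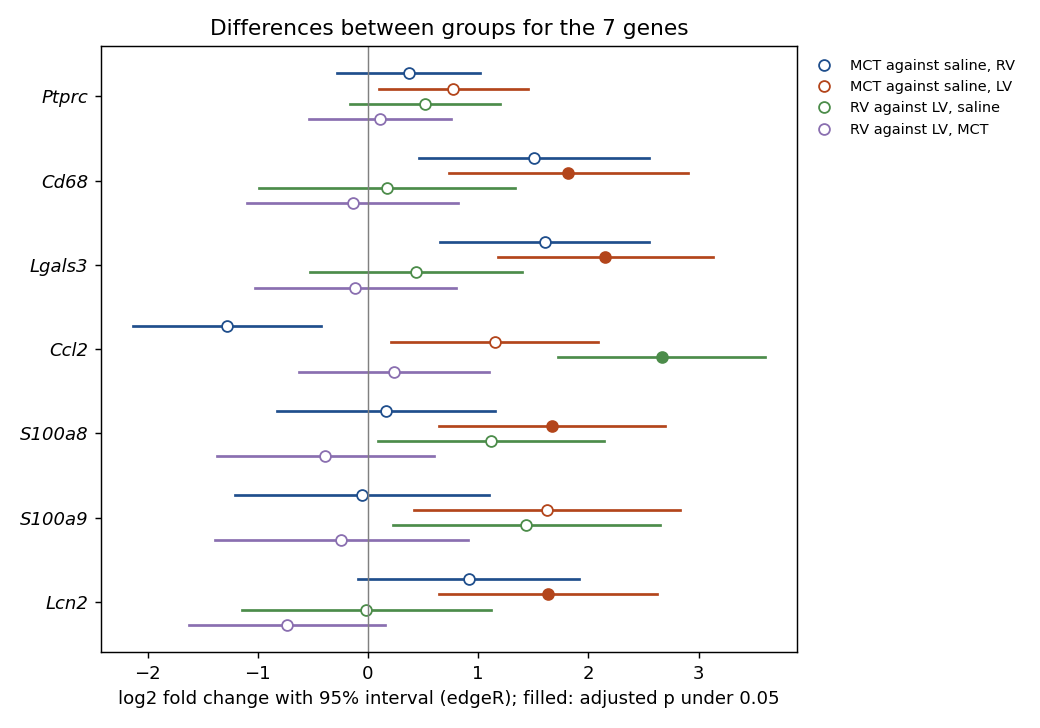
Log2 fold changes of the 7 genes with 95% intervals (edgeR, 5 libraries per group) for MCT against saline in each ventricle and for RV against LV within each treatment; filled points have an adjusted p under 0.05. Filled points are Cd68, Lgals3, S100a8 and Lcn2 for MCT in the LV, and Ccl2 for RV against LV after saline.

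Lgals3 had the smallest adjusted p of the 7 in the LV. Its LV MCT libraries, replicates 1 to 5, were at 85.8, 82.9, 25.6, 93.6 and 150 CPM, and its LV saline libraries at 15.9, 26.3, 16.6, 22.4 and 17.6 CPM. All LV MCT libraries except replicate 3 lay above every LV saline library. The means were 87.6 ± 44.2 and 19.8 ± 4.44 CPM (SD, n = 5), a log2 fold change of 2.15 (standard error 0.47, adjusted p = 0.012 by edgeR), or 4.45-fold. The call was kept in all 19 alternative fits that held both months, with adjusted p from 0.000135 to 0.0416. Within May and June alone, with 3 libraries a group, the log2 fold change was 1.74 and did not pass (adjusted p = 0.30), and within November, with 2 a group, it was 2.59 and passed (adjusted p = 0.037).

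Lgals3 in the RV was at 147, 138, 27.5, 17.9 and 73.5 CPM after MCT and at 20.3, 33.8, 26.4, 25.4 and 27.8 CPM after saline. RV MCT replicates 1, 2 and 5 were above all RV saline libraries, replicate 3 lay among them and replicate 4 was below all of them. The log2 fold change was 1.60 (standard error 0.46, 95% interval 0.66 to 2.55, adjusted p = 0.081 by edgeR). Without RV MCT replicate 1 it was 1.28 (adjusted p = 0.29) and without replicate 2 it was 1.32 (adjusted p = 0.26). It passed without replicate 3 (1.83, adjusted p = 0.036) or replicate 4 (1.85, adjusted p = 0.011), where the genes called in the whole table went from 30 to 249 and 707. Within May and June it was 1.98 (adjusted p = 0.0805) and within November 0.80 (adjusted p = 0.96).

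Cd68, the other macrophage marker, was at 9.65, 13.3, 3.16, 10.8 and 20.6 CPM in LV MCT and at 3.33, 3.85, 2.01, 2.80 and 4.35 CPM in LV saline libraries. Again LV MCT replicate 3 alone stayed within the saline range. The means were 11.5 ± 6.32 and 3.27 ± 0.909 CPM (SD, n = 5), a log2 fold change of 1.82 (standard error 0.52, adjusted p = 0.033 by edgeR). The call was lost without any one of LV MCT replicates 1, 2, 4 and 5 or LV saline replicates 1, 3, 4 and 5, with log2 fold changes from 1.51 to 1.94 and adjusted p up to 0.10. It was also lost without a filter on low counts (1.80, adjusted p = 0.072), within May and June (1.55, adjusted p = 0.37) and within November (2.12, adjusted p = 0.061).

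Cd68 in the RV was at 9.75, 27.3, 4.50, 2.10 and 7.06 CPM after MCT and at 3.22, 1.94, 3.62, 4.92 and 4.33 CPM after saline. The spread among RV MCT libraries was wide, from 6 to 204 counts. The log2 fold change was 1.51 (standard error 0.502, adjusted p = 0.13 by edgeR). It was 1.73 without RV MCT replicate 4, which passed (adjusted p = 0.031), and 0.699 without replicate 2 (adjusted p = 0.53). Within May and June it was 2.22 (adjusted p = 0.082) and within November 0.090 (adjusted p = 0.99).

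Cd68 and Lgals3 were high in the same libraries. The 7 libraries with most Lgals3, all from MCT rats, were the 7 with most Cd68: LV MCT replicates 1, 2, 4 and 5 and RV MCT replicates 1, 2 and 5. Of these 7 libraries 6 were also among the 7 with most Lcn2, while 4 were among the 7 with most S100a8 and 3 among the 7 with most Ptprc. The number 7 is where the widest gap in Lgals3 lay, between 73.5 and 33.8 CPM, and was chosen after its values were seen. RV MCT replicates 3 and 4 and LV MCT replicate 3 fell outside the set. How many other tested genes were highest in the same 7 libraries was not counted. By Pearson's r of log2 CPM, Cd68 was the 65th closest of 10928 genes to Lgals3, and Lgals3 the 38th closest to Cd68. Their likeness is thus not particular to these 2 markers.

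Lcn2 was the rarest transcript of the 7 in counts, with 2 to 97 per library, so that counting error is large. LV levels were 8.0002, 5.19, 1.90, 4.44 and 3.57 CPM after MCT and 1.85, 1.05, 1.76, 1.68 and 1.21 CPM after saline. The groups did not overlap, as in 3.21% of all tested genes, but the lowest MCT library (6 counts) and the highest saline library (10 counts) differed by less than 1 count is worth. With only the LV groups fitted, Lcn2 did not pass the filter on low counts. It was tested on account of libraries in which it is high, so its call and the lack of overlap are descriptive. The log2 fold change was 1.63 (standard error 0.48, adjusted p = 0.035 by edgeR). The call was lost without any one of LV MCT replicates 1, 2, 4 and 5 or any LV saline library, with adjusted p up to 0.12, as well as within May and June (1.70, adjusted p = 0.34) and within November (1.46, adjusted p = 0.26).

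Lcn2 in the RV was at 1.99, 5.62, 0.921, 0.700 and 4.70 CPM after MCT and at 2.15, 1.11, 1.11, 0.757 and 2.16 CPM after saline. RV MCT replicates 2 and 5 were above all saline libraries and replicate 4 was below them. Replicate 4 (2 counts) and the lowest saline library (4 counts) differed by less than 1 count is worth. The log2 fold change was 0.91 (standard error 0.48, adjusted p = 0.34 by edgeR), which did not pass.

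S100a8, one subunit of calprotectin, was at 175, 82.1, 35.4, 17.9 and 51.9 CPM in LV MCT and at 34.9, 23.1, 28.4, 6.91 and 21.7 CPM in LV saline libraries. Replicate 4 after MCT stayed within the saline range and replicate 1 held more than any other library. The means were 72.5 ± 62.1 and 23.0 ± 10.4 CPM (SD, n = 5), a log2 fold change of 1.67 (standard error 0.49, adjusted p = 0.038 by edgeR). Without LV MCT replicate 1 it was 1.001 (adjusted p = 0.17), and the call was also lost without LV MCT replicate 2 or 5 or LV saline replicate 2, 3, 4 or 5. It was lost as well with only the LV groups fitted (1.66, adjusted p = 0.075), with limma voom, which gives libraries unequal weights (0.58, adjusted p = 0.41), without a filter on low counts (1.67, adjusted p = 0.10), within May and June (1.74, adjusted p = 0.30) and within November (1.27, adjusted p = 0.22).

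S100a9, the other subunit, was at 117, 29.99, 28.8, 9.80 and 56.3 CPM in LV MCT and at 30.7, 17.9, 16.8, 2.80 and 10.9 CPM in LV saline libraries. Replicate 1 was again the highest MCT library and replicate 4 the lowest. The log2 fold change was 1.62 (standard error 0.58, adjusted p = 0.081 by edgeR), close to that of S100a8 in size. It was 0.94 without LV MCT replicate 1 (adjusted p = 0.33) and 0.53 with limma voom (adjusted p = 0.56). It passed with the month as a batch term (1.71, adjusted p = 0.038) and with the replicate number as a block (1.56, adjusted p = 0.033), but not within May and June (1.41, adjusted p = 0.37) or November (2.26, adjusted p = 0.12). That block joins libraries of the same number from all groups, those of the RV included. It joins LV MCT and LV saline libraries by number alone, and 1 of these 5 pairs shares a description code. Libraries of the same number carry codes of the same period (May or June, or November). The block therefore also takes up the month, and the passes with the month term and with the block are not separate.

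In the RV both subunits had similar means over all 5 libraries with and without MCT. S100a8 averaged 55.9 ± 22.4 CPM after MCT and 50.1 ± 21.8 CPM after saline (SD, n = 5), a log2 fold change of 0.16 with a 95% interval of -0.82 to 1.15. S100a9 averaged 41.2 ± 24.6 and 43.1 ± 23.1 CPM, a log2 fold change of -0.054 with an interval of -1.21 to 1.10. These intervals leave room for a change of over 2-fold, so equal levels are not shown.

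S100a8 and S100a9 are neighbours in the RefSeq gene table, with 0 genes between them. Over the 20 libraries their log2 CPM correlated with Pearson's r at 0.94 and Spearman's rho at 0.92, and each was the closest of all 10928 other tested genes to the other. With group means removed the Pearson value was 0.92, and without the 2 libraries farthest from the median of S100a8 it was 0.88. Neither value has the month in the codes removed, and both genes averaged higher in May and June than in November in every group. No p is given, since libraries may share animals and all points share the scaling to library depth. The count ratio of S100a8 to S100a9 averaged 1.51 ± 0.48 (SD, n = 20) and ran from 0.922 to 2.74, and its mean was 1.64 ± 0.697 in LV MCT and 1.72 ± 0.54 in LV saline libraries (SD, n = 5). The closest gene to each of the other 5 lay outside the 7 and was a different one each time, with Pearson values from 0.84 to 0.97.

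**Figure D3:**
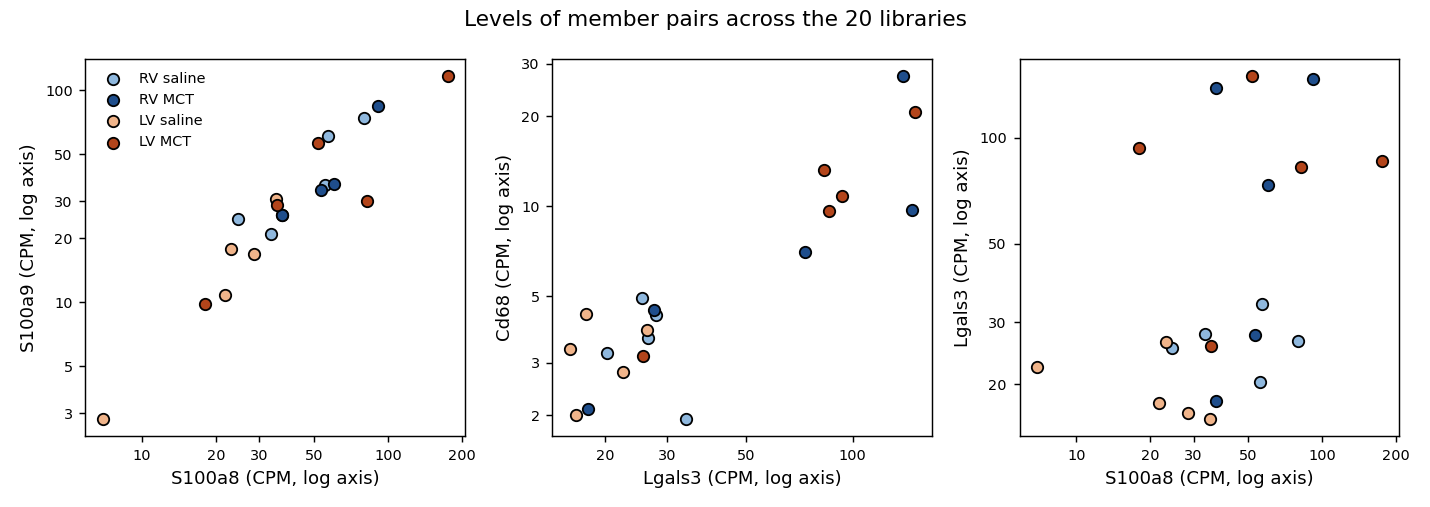
CPM of 3 gene pairs on log axes, 1 point per library, coloured by group. S100a8 and S100a9 lie along 1 line, Cd68 and Lgals3 separate 7 MCT libraries from the other 13, and Lgals3 shows both low and high values at the same S100a8 level.

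Ptprc, the general leukocyte marker, had the smallest log2 fold change of the 7 between the LV groups. It was at 11.5, 5.96, 18.01, 13.2 and 30.2 CPM in LV MCT and at 10.5, 13.3, 6.79, 7.66 and 7.25 CPM in LV saline libraries. LV MCT replicate 2 was below all LV saline libraries and replicates 1 and 4 were within their range. The log2 fold change was 0.78 (standard error 0.32, 95% interval 0.10 to 1.45, adjusted p = 0.13 by edgeR), and no alternative fit called it.

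Ptprc in the RV was at 20.8, 18.7, 14.0, 17.5 and 12.7 CPM after MCT and at 7.52, 14.7, 18.1, 14.2 and 10.97 CPM after saline. The groups overlapped, with a log2 fold change of 0.37 (standard error 0.31, 95% interval -0.28 to 1.02, adjusted p = 0.601 by edgeR). RV MCT replicate 4, the lowest library of its group for Lgals3, Cd68 and Lcn2, lay within the range of its group for Ptprc. It was not the lowest for Ccl2, S100a8 or S100a9 either, where it ranked 4th of its group.

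Ccl2, the monocyte-attracting chemokine, stood apart from the other genes in that its highest levels were in the RV after saline. RV saline replicates 1 to 5 were at 41.7, 77.6, 43.7, 11.9 and 13.9 CPM, and LV saline replicates at 6.47, 3.85, 7.54, 3.92 and 7.49 CPM. Every RV saline library was above every LV saline library, as in 1.59% of all tested genes. The means were 37.8 ± 26.8 and 5.85 ± 1.85 CPM (SD, n = 5), a log2 fold change of 2.67 (standard error 0.45, adjusted p = 0.020 by edgeR), or 6.34-fold.

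Ccl2 was thus 1 of the 6 genes called higher in the RV than in the LV after saline, which are 0.0549% of those tested, and the 4th by p. In each same-numbered RV and LV pair the RV value was higher, as the lack of overlap requires, by 1.86-fold to 20.2-fold. The call was lost without RV saline replicate 1 or 3 or LV saline replicate 2, 4 or 5 (adjusted p from 0.0501 to 0.0697), with log2 fold changes between 2.54 and 2.77. It was also lost without a filter on low counts (2.65, adjusted p = 0.051) and with each RV and LV pair as a replicate block (2.37, adjusted p = 0.085).

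The level of Ccl2 within RV saline moved with the month in the codes. The 3 libraries of May and June averaged 54.4 ± 20.2 CPM (SD, n = 3) and the 2 of November 12.9 ± 1.398 CPM (SD, n = 2). In LV saline the same months gave 5.95 ± 1.899 and 5.71 ± 2.52 CPM. Fitted within May and June, RV against LV had a log2 fold change of 3.14 (edgeR adjusted p = 0.0043), and within November 1.20 (adjusted p = 0.9999, unadjusted p = 0.0077). With the month as a batch term the pooled value was 2.55 (adjusted p = 0.028). Such a gap within RV saline was not particular to Ccl2. S100a8 averaged 64.1 CPM in May and June and 29.0 CPM in November, and S100a9 56.7 and 22.8 CPM. Cd68 went the other way (2.93 and 4.62 CPM), while Lgals3 (26.8 and 26.6 CPM), Ptprc (13.4 and 12.6 CPM) and Lcn2 (1.46 and 1.46 CPM) changed little. What else differed between these months was not tested.

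After MCT, Ccl2 was at 17.9, 17.8, 19.3, 12.6 and 8.68 CPM in the RV and at 13.8, 9.04, 5.37, 17.1 and 19.2 CPM in the LV. The ventricles overlapped, with a log2 fold change of 0.24 for RV against LV (95% interval -0.63 to 1.10, edgeR adjusted p = 0.99996). MCT against saline gave -1.28 in the RV (SE 0.41, adjusted p = 0.12) and 1.15 in the LV (SE 0.45, adjusted p = 0.11), and neither passed. The LV difference passed with only the LV groups fitted (1.15, adjusted p = 0.045) and within November (1.68, adjusted p = 0.044). In the LV all MCT libraries except replicate 3 were above every saline library. In the RV the 3 May and June saline libraries were above every MCT library and the 2 November ones were not, and the log2 fold change was -1.55 within May and June (adjusted p = 0.038) and -0.30 within November (adjusted p = 0.97).

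**Figure D4:**
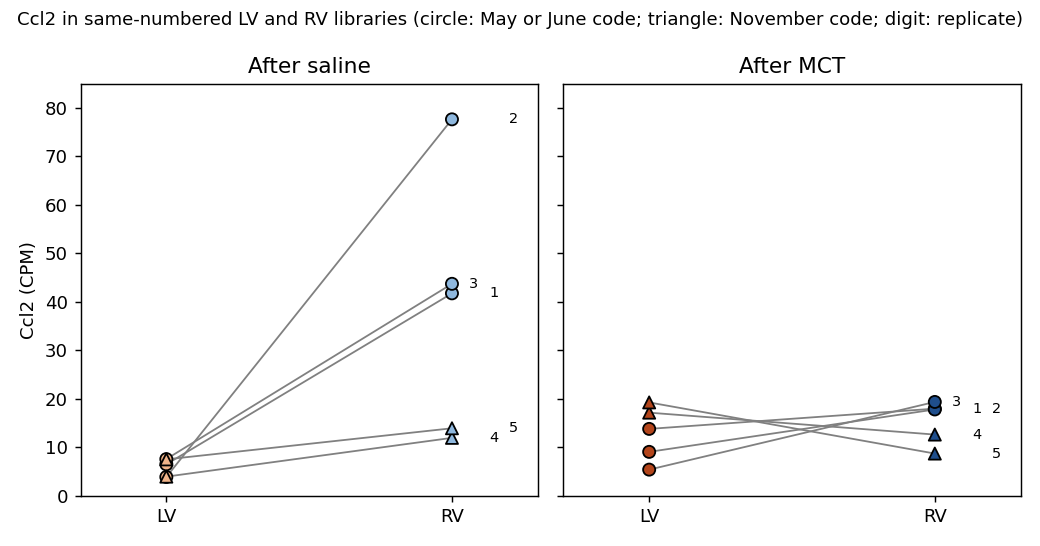
Ccl2 in CPM in the LV and RV after saline (left) and after MCT (right); lines join libraries of the same replicate number, which is printed at the RV point, circles carry a May or June code and triangles a November code. After saline all 5 lines rise from LV to RV, to 41.7 CPM or more for replicates 1 to 3 and to 11.9 and 13.9 CPM for replicates 4 and 5.

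The other 6 genes were also compared between ventricles. After saline, S100a8 averaged 50.1 CPM in the RV and 23.0 CPM in the LV, a log2 fold change of 1.12 (standard error 0.49, adjusted p = 0.54 by edgeR), and S100a9 43.1 and 15.8 CPM, with 1.44 on the same scale (standard error 0.58, adjusted p = 0.47). In all 5 same-numbered pairs the RV library held more of both, and so it did for Lgals3 (by 1.13-fold to 1.59-fold). Ptprc was higher in the RV in 4 of 5 pairs, Lcn2 in 3 and Cd68 in 2. The share of all tested genes with such pair counts was not computed, so they are descriptive. Ccl2, S100a8 and S100a9 made 3 of 7 genes higher in the RV at an unadjusted p under 0.05, as were 4.22% of all tested genes, but only Ccl2 passed the adjusted threshold. Lgals3 (0.44), Ptprc (0.52), Cd68 (0.17) and Lcn2 (-0.014) had log2 fold changes with intervals that included 0. After MCT none of the 7 passed, and none had an unadjusted p under 0.05, against 0% and 1.86% of all tested genes (edgeR; DESeq2 and limma voom also called 0 of the 7), with log2 fold changes for RV against LV from -0.74 for Lcn2 to 0.24 for Ccl2. The 95% interval reached from -1.62 to 0.15 for Lcn2 and from -1.39 to 0.90 for S100a9, so alike levels are not shown.

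The difference between the MCT responses of RV and LV was below 0 for all 7 genes, as for 50.7% of all tested genes, with a median of -0.72 against -0.0052 over all genes. None passed (edgeR smallest adjusted p of any gene 0.85), nor with DESeq2 or limma voom. In the main edgeR fit the response comparison called 0% of all tested genes, and DESeq2 and limma voom each called 1 gene. Without adjustment, 3 of the 7 had p under 0.05, against 1.45% of all tested genes in this direction. Ccl2 differed by -2.43 (SE 0.61, 95% interval -3.70 to -1.16, unadjusted p = 0.00068, adjusted p = 0.9999) and was the 2nd of 10929 genes by p. S100a8 differed by -1.503 (unadjusted p = 0.039) and S100a9 by -1.68 (unadjusted p = 0.048). Without LV MCT replicate 1 these were -0.83 (unadjusted p = 0.17) and -0.99 (unadjusted p = 0.19), and with limma voom -0.29 and -0.43. For these 3 genes the RV saline libraries averaged higher than the LV saline libraries, and both responses are taken from those groups.

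The order of group means was LV MCT, RV MCT, RV saline and LV saline for Lgals3, Cd68 and, from 72.5 to 23.0 CPM, S100a8. S100a9 followed LV MCT, RV saline, RV MCT, LV saline, Ptprc had RV MCT first (16.7 ± 3.36 CPM) and LV saline last (9.11 ± 2.76 CPM), and Lcn2 had LV MCT first (4.62 ± 2.25 CPM) with LV saline (1.51 ± 0.357 CPM) and RV saline (1.46 ± 0.653 CPM) last. Between neighbours in these orders no tested pair of groups passed the threshold. For Ccl2 the order was RV saline, RV MCT (15.3 ± 4.49 CPM), LV MCT (12.9 ± 5.71 CPM) and LV saline, again with no neighbours past the threshold in the tests made.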

How the data were processed

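The authors deposited raw read counts per Ensembl gene, 1 column per library. According to the submitters' processing notes, tools were STAR 2.7.10a and HTSeq 0.11.3, and both mRatBN7.2 and rn6 are named as builds. Per the labels' protocols, QuantSeq FWD libraries of total RNA were sequenced in 2 runs. Strand setting, annotation release and the joining of runs were not given in the sources used here. In RefSeq's GRCr8 gene table, 0 of the 7 genes overlap another gene.

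All columns were matched to samples by description code. edgeR 4.0.16 (R 4.3.3) was run with TMM factors, filterByExpr and a robust quasi-likelihood fit of 4 group means. Standard errors come from the F statistic. Likeness used log2 CPM with a prior count of 2. The code was tested on simulated data. Alternatives were RLE factors, other filters, a month term, fewer groups, a replicate block, DESeq2 1.42.0, limma 3.58.1 voom, left-out libraries, single months and an exact permutation test on log2(CPM + 1). All 7 genes are named whatever they show. The rule for the members used no measured value, but members, lists and alternatives were chosen with earlier results of these data known. Lists of further leukocyte, cytokine and tissue genes had been fixed by symbol, but 0 genes of the reference table carry an Ensembl identifier, so they were not tested. No 2 libraries had identical counts. Same-numbered RV and LV libraries share description codes that read as dates, and MCT and saline libraries are joined by number. Same-numbered libraries did not all deviate together: of 5 pairs, those with a correlation over 0.1 numbered 1 for MCT against saline in each ventricle, 2 for RV against LV after MCT and 3 after saline.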

Additional observations from a re-analysis of the deposited data

Results flagged for a closer look

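S100a9 in RV MCT replicate 1 was at 84.4 CPM, far above the next RV MCT library at 36.2 CPM. The gap was 0.823 of the group's range, over the critical value of 0.71 for 5 values. It was the only one picked out of 28 sets of 5 values, and chance picks about 1 in 20. S100a8 was at 91.5 CPM in the same library, also the highest of its group.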

How the results depend on the processing

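Of the 7 genes, the number called for MCT in the LV was 4, and it was 2 without a filter on low counts and 1 to 4 with 1 library left out. In the RV it was 0, 1 with DESeq2, 2 without both LV MCT replicate 3 and RV MCT replicate 4, and 0 to 2 with 1 library left out. The whole table had 30 genes called for the RV, 1076 without both libraries and 0 to 707 with 1 left out. Those 2 libraries were chosen because they looked unaffected, which favours calls. For RV against LV after saline it was 1, then 0 without a filter and 0 to 1 with 1 library left out. It was 0 in every fit that held both months for RV against LV after MCT and for the difference of responses. For the LV it had 1040 genes called and 331 to 1699 with 1 library left out. The cause was not tested. The replicate block joined libraries of all groups by number for MCT against saline. For RV against LV it joined same-numbered libraries of a treatment, which share a description code. With this block the RV count was 0, the LV count 5 (S100a9 added, 1.56, adjusted p = 0.033) and the count for RV against LV after saline 0 (Ccl2 2.37, adjusted p = 0.085). In the exact two-sided permutation test, unadjusted, Ccl2 for RV against LV after saline and Lcn2 in the LV had p = 0.0079, the smallest it allows, Lgals3 in the LV had p = 0.016 and S100a8 in the LV p = 0.079. Lcn2 did not pass the filter with only the LV or only the saline groups fitted.

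Sign changes were all in log2 fold changes that had not passed. For MCT in the RV, S100a9 was 0.039 with a month term, 0.098 with voom, 0.067 without both libraries and 0.46 within November, and S100a8 was -0.062 within May and June. For RV against LV after MCT, S100a9 was 0.019 with the replicate block, 0.85 with voom and 0.049 in the permutation test, S100a8 was 0.64 with voom and 0.52 within November, and Ccl2 was -0.0090 with voom and -0.79 within November. Within May and June, Cd68 was 0.63 and Lgals3 0.68, and within November Ptprc was -0.51. For RV against LV after saline, Lcn2 was 0.090 with voom and 0.033 within November, and Cd68 was -0.045 within May and June. The difference of responses within May and June was 0.28 for Ptprc, 0.68 for Cd68 and 0.23 for Lgals3. With 1 library left out, S100a8 ran from -0.086 to 0.39 and S100a9 from -0.49 to 0.23 for MCT in the RV, and Lcn2 from -0.22 to 0.16 for RV against LV after saline. For RV against LV after MCT, Cd68 ran from -0.94 to 0.15, Lgals3 from -0.43 to 0.17, S100a8 from -0.63 to 0.27, S100a9 from -0.67 to 0.43 and Ptprc from -0.087 to 0.48. With 2 counts in its shallowest library, Lcn2 is limited by depth.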
